A study of Mus musculus with 15 samples.

Results

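The comparison concerned the 12 AKP lines among 15 mouse cell lines measured on expression arrays. AKP is the genotype label; the labels do not spell out its letters and name no tissue. Of these lines, 7 carried a pair number in their labels, AKP 6 to AKP 12, and 5 carried none, AKP 1 to AKP 5. The labels do not say what a pair number stands for. The lines were kept in 1 common serum-supplemented medium without treatment, and each was measured on 1 array of total RNA. The 7 lines with a pair number comprised 6 labelled female and 1 labelled male, and 6 labelled tumour and 1 labelled adenoma, AKP 6. The 5 lines without one comprised 3 labelled female and 2 labelled male, all tumour. The names of all 7 lines with a pair number begin with TMC, as do those of AKP 3 and AKP 4, while AKP 1, AKP 2 and AKP 5 have other names, so the label and the naming largely coincide. The remaining 3 lines of the series have the genotype label AP. Although 12 AKP lines are listed, the design text of the series speaks of 10.

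The median probe set of an AKP array lay at 3.91 to 4.05 on the deposited log2 scale. Below 3, a floor on which values crowd, lay 35.9% to 39.5% of the probe sets. The scaling of the deposited values is not given, so like medians may come from it. AKP 1 stood apart, with a median correlation of 0.922 with the other AKP lines. Its fibroblast and smooth muscle list had a median level of 12.6, against at most 4.12 in the other lines without a pair number, and 7.95 in AKP 8, the highest line with one. Epithelial markers were present in most lines of both groups: the keratin gene Krt18 ranged from 10.82 to 15.39 without a pair number and from 8.93 to 15.52 with one. Cdh1, however, was low in AKP 1, AKP 8 and AKP 10, at 5.54, 5.71 and 5.89, against 8.30 to 13.61 in the other lines. The keratin gene Krt8 was lowest in the same lines, at 9.49, 9.91 and 4.27. Epcam lay at 8.11 to 9.31 in all 12 lines. Of the intestinal markers, Cdx2 varied from 3.05 to 11.52 without and from 4.28 to 10.18 with a pair number, highest in AKP 3 and AKP 6, while Vil1 was near the floor in all 12 lines, at 2.51 to 4.21. Also near the floor were the defining markers of haematopoietic and endothelial cells, Ptprc, Pecam1 and Cdh5, at 1.51 to 2.98. Sex-linked genes went against the label of AKP 11, labelled female. That line had the Y-linked gene Eif2s3y at 12.71 and Xist, which coats and silences the inactive X, at 2.67. Both genes were low in AKP 5, labelled male, with Eif2s3y at 3.24 and Xist at 2.70. The same held for AKP 2, labelled female, at 3.08 and 2.97. In AKP 5 and AKP 2 these genes do not decide the sex. Results are therefore also given without single lines.

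Among the genes that separated the groups were members of the integrated stress response, lower in lines with a pair number. In this response, kinases that sense amino acid shortage, unfolded proteins or other stress phosphorylate the initiation factor eIF2α, which lowers protein synthesis in general while raising translation of the transcription factor ATF4. ATF4 in turn induces genes for amino acid transport and synthesis, one-carbon metabolism, transfer RNA charging and feedback inhibitors of the response. When unfolded proteins in the endoplasmic reticulum are the trigger, other branches also induce chaperones.

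The first question was whether lines of the same label resemble each other across the transcriptome. Over 18193 genes, each represented by its brightest probe set, the mean Pearson correlation between 2 lines was 0.959 among lines with a pair number, 0.945 among lines without one and 0.946 across the groups. Pairs within a group exceeded pairs across groups by 0.0088 on average (exact permutation test over 792 ways to choose 5 of 12 lines, two-sided p = 0.0114). Each of the 7 lines with a pair number had its closest line in its own group, the closest pair being AKP 9 and AKP 12 at 0.980. Of the lines without one, AKP 3 was closest to AKP 11 at 0.972 and AKP 5 to AKP 6 at 0.968. Over 12 lines the excess lay with those with a pair number. With AKP 1 included, pairs of lines without one were no more alike than pairs across groups. Leaving out AKP 1, pairs of lines without a pair number correlated at 0.9576, against 0.9526 across groups and 0.9593 among lines with one. On average, and with AKP 1 counted in their group, AKP 3, AKP 4 and AKP 5 correlated with their own group at 0.9496, 0.9520 and 0.9512. With the other group they did so at 0.9576, 0.9593 and 0.9575. AKP 1 and AKP 2 were closer to their own group. The test also responds to unequal spread within the groups, so it does not show likeness within both. The groups did not form separate blocks. Without AKP 1 and AKP 6 the excess was 0.0052 and did not pass (exact permutation p = 0.081 over 210 splits), and without AKP 2 it was 0.0075 (p = 0.0879 over 330 splits). Genes within an array are not independent replicates, so the test rests on the lines alone.

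**Figure D1:**
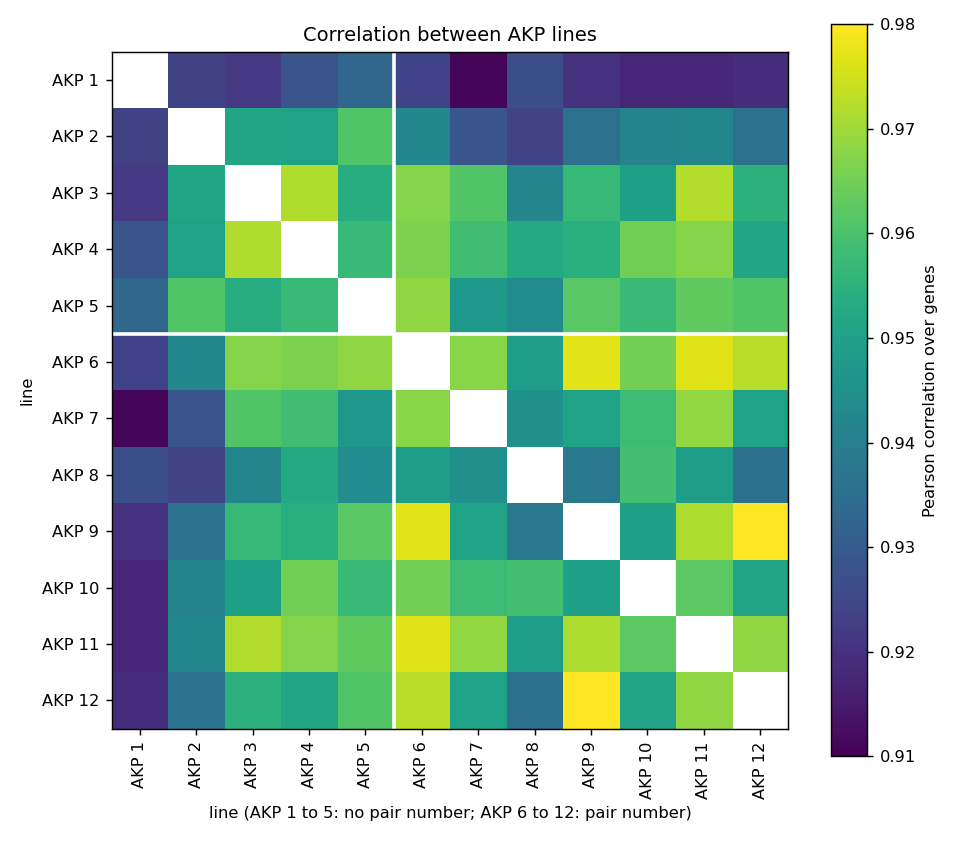
Pearson correlation over 18193 genes between each pair of the 12 AKP lines (colour scale); white lines separate the lines without a pair number (AKP 1 to AKP 5) from those with one (AKP 6 to AKP 12), and the diagonal is blank. The row of AKP 1 is the darkest, with values of 0.911 to 0.933, and the lightest cell is that of AKP 9 and AKP 12 at 0.980.

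Gene by gene, limma called 31 of 18193 genes at an adjusted p under 0.05, which is 0.17% of the genes tested. Of these, 12 were higher with a pair number (0.066% of all genes) and 19 were lower (0.104%). The lowest adjusted p was 0.0217, so all 31 calls lay close to the threshold. With each array centred on its median, 33 genes were called, 24 higher and 9 lower, so the share of higher calls depended on the scaling. Of the 31 genes, 18 were among these 33. Many more genes had an unadjusted p under 0.05: 2571, or 14.1%, of which 1463 were higher and 1108 lower. In all 31 called genes the groups did not overlap, as in 306 genes or 1.68% overall. A difference of at least a factor of 2 was reached by 15 of the lower and 3 of the higher called genes.

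The fit without AKP 1 and AKP 6 called 0 genes (limma; 0% of 18193), with a lowest adjusted p of 0.0521 and 1900 genes (10.4%) at an unadjusted p under 0.05. There, 8 genes were called with array weights in limma and 0 with a per-gene test of unequal variances, which gave 1338 genes at an unadjusted p under 0.05. The 31 genes each had an unadjusted p under 0.05 in those 10 lines, and their limma adjusted p-values ran from 0.0629 to 0.176. Over the 12 lines, leaving out AKP 3, AKP 9 or AKP 10 gave 0 calls, and leaving out AKP 5 gave 503. In each of the 12 fits that left out 1 line, all 31 genes had an unadjusted p under 0.05. Their direction could not turn there, because their groups do not overlap. Within the 9 lines named TMC, AKP 3 and AKP 4 against the 7 lines with a pair number, all 31 again had an unadjusted p under 0.05, at a median of 0.915 times the difference over 12 lines. None passed the adjusted threshold there, the smallest ratio being 0.703, where 15 other genes were called. The 31 genes were chosen by their p over the same 12 lines. An unadjusted p under 0.05 in part of those lines is therefore no separate support.

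Aldh1l2, a mitochondrial dehydrogenase of formyltetrahydrofolate in one-carbon metabolism, differed most among the lower called genes. Without a pair number it lay at 13.01 in AKP 1, 11.03 in AKP 2, 10.73 in AKP 3, 11.02 in AKP 4 and 10.38 in AKP 5, and with one its lowest, median and highest values were 5.23, 5.70 and 8.44. The groups were separated by a wide gap, and AKP 12 was the highest of its group. The means were 6.17 ± 1.10 (SD, n = 7) with and 11.23 ± 1.03 (SD, n = 5) without a pair number, a log2 difference of -5.06 ± 0.60 (SE; limma adjusted p = 0.0352), or 33.4-fold. Leaving out single lines gave differences from -5.44 to -4.62, and the 9 TMC lines gave -4.70 ± 0.77 (SE; limma unadjusted p = 2.84e-04).

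Gadd45a, Plk3 and Sesn2 were also lower. Gadd45a, induced by DNA damage and other stress, lay at 13.11, 14.24, 13.69, 12.97 and 12.29 in AKP 1 to AKP 5, and at 9.13, 10.35 and 11.24 (lowest, median, highest) in lines with a pair number. All lines with a pair number lay below every line without one. The difference was -2.96 ± 0.39 (SE; limma adjusted p = 0.0352). Plk3, a stress-responsive polo-like kinase, lay at 9.35, 9.04, 8.51, 7.68 and 8.07 in AKP 1 to AKP 5 and at 5.17, 6.46 and 6.80 with a pair number, a difference of -2.40 ± 0.37 (limma adjusted p = 0.0442). Sesn2, a sestrin that restrains mTORC1 signalling when leucine is scarce, lay at 8.10, 7.66, 8.31, 7.08 and 7.92 against 6.40, 6.58 and 7.03. For Sesn2 the highest line with a pair number came close to AKP 4, and the difference was -1.18 ± 0.19 (limma adjusted p = 0.0491).

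The remaining large differences in this direction fell on genes of varied function. Otub2, a deubiquitinating enzyme, had the lowest adjusted p of all genes: it lay at 9.86, 8.89, 8.40, 7.95 and 9.09 in AKP 1 to AKP 5 and at 4.46, 5.01 and 6.04 with a pair number. Its difference was -3.69 ± 0.39 (limma adjusted p = 0.0217), and a second probe set gave -4.16. Kctd15, a BTB-domain protein, lay at 10.37, 9.83, 8.79, 7.66 and 9.45 against 3.05, 4.90 and 6.51, a difference of -4.32 ± 0.63 (limma adjusted p = 0.0365). Both genes showed AKP 4 lowest among the lines without a pair number, still above all others. Insr, the insulin receptor, lay at 10.96, 10.45, 10.15, 9.94 and 10.04 against 8.75, 9.18 and 9.32, a smaller difference of -1.22 ± 0.17 (limma adjusted p = 0.0365). Sema4g, a semaphorin, and Inca1, an inhibitor of cyclin-dependent kinase, were 11.5-fold and 7.98-fold lower, but their means with a pair number, 3.63 and 3.11, lay near the floor of the arrays. Prpf40b, a pre-mRNA processing factor, Ss18l2 and the F-box gene Fbxl12 differed by -1.90, -1.41 and -1.24. Derl1, a membrane protein of endoplasmic-reticulum-associated degradation, differed by -1.07 ± 0.17 and Eif4a2, an RNA helicase of translation initiation, by -0.84 ± 0.14. The other called lower genes were Plekhn1, Yaf2, Man2c1, G0s2 and 2410006H16Rik, of which G0s2 lay on the floor at a mean of 3.16 with and 3.75 without a pair number.

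Neurl1b led the 12 called genes that were higher with a pair number. It encodes a ubiquitin ligase that acts on Notch ligands. It lay at 3.90, 3.22, 3.34, 4.67 and 4.60 in AKP 1 to AKP 5, near the floor, and at 6.20, 7.89 and 9.21 (lowest, median, highest) with a pair number. Every line with a pair number was clearly above that floor, and the difference was 3.85 ± 0.53 (SE; limma adjusted p = 0.0352). Galnt10, an enzyme that starts O-linked glycans on mucin-type proteins, lay at 5.58, 5.67, 5.36, 6.49 and 5.93 against 7.45, 8.04 and 9.65. AKP 8 was the highest line for Galnt10, whose difference was 2.38 ± 0.35 (limma adjusted p = 0.0365). Trim65, a ubiquitin ligase, differed by 1.95 ± 0.31 (limma adjusted p = 0.0463).

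The other 9 higher genes differed by less than a factor of 2, between 0.48 and 0.93 on the log2 scale, with small spread. They included genes of mitochondria, namely Mrps11, a protein of the mitochondrial ribosome (0.89), Dnlz, which assists the mitochondrial Hsp70 chaperone (0.83), and Atp5g1, a subunit of ATP synthase (0.48). Pnp, purine nucleoside phosphorylase, lay at 11.94, 11.72, 11.95, 12.16 and 12.02 in AKP 1 to AKP 5 and at 12.36, 12.48 and 12.66 with a pair number, a difference of 0.55 ± 0.08 (SE; limma adjusted p = 0.0365). Its groups were narrow and did not touch. Tubgcp4, of the gamma-tubulin ring complex, differed by 0.74, the endoplasmic reticulum selenoprotein gene Selenot by 0.51, the kinase gene Stk16 by 0.88, the ubiquitin-binding gene Ankrd13a by 0.93 and the zinc-finger gene Zfp407 by 0.92. Of the 31 called genes, 17 have 1 probe set and 14 have several. Among the 21 further probe sets of those 14 genes, 16 had the same direction and 10 of these an unadjusted p under 0.05. The 5 that went the other way, of Inca1, Selenot, Zfp407 and Mrps11, were dim, with means of 2.61 to 3.86. Of these 5, 1, of Selenot, differed by -0.27, also with an unadjusted p under 0.05. Dim probe sets were also among the 16, such as those of Insr at 1.78 and 2.74 and the second of Otub2 at 3.92.

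**Figure D2:**
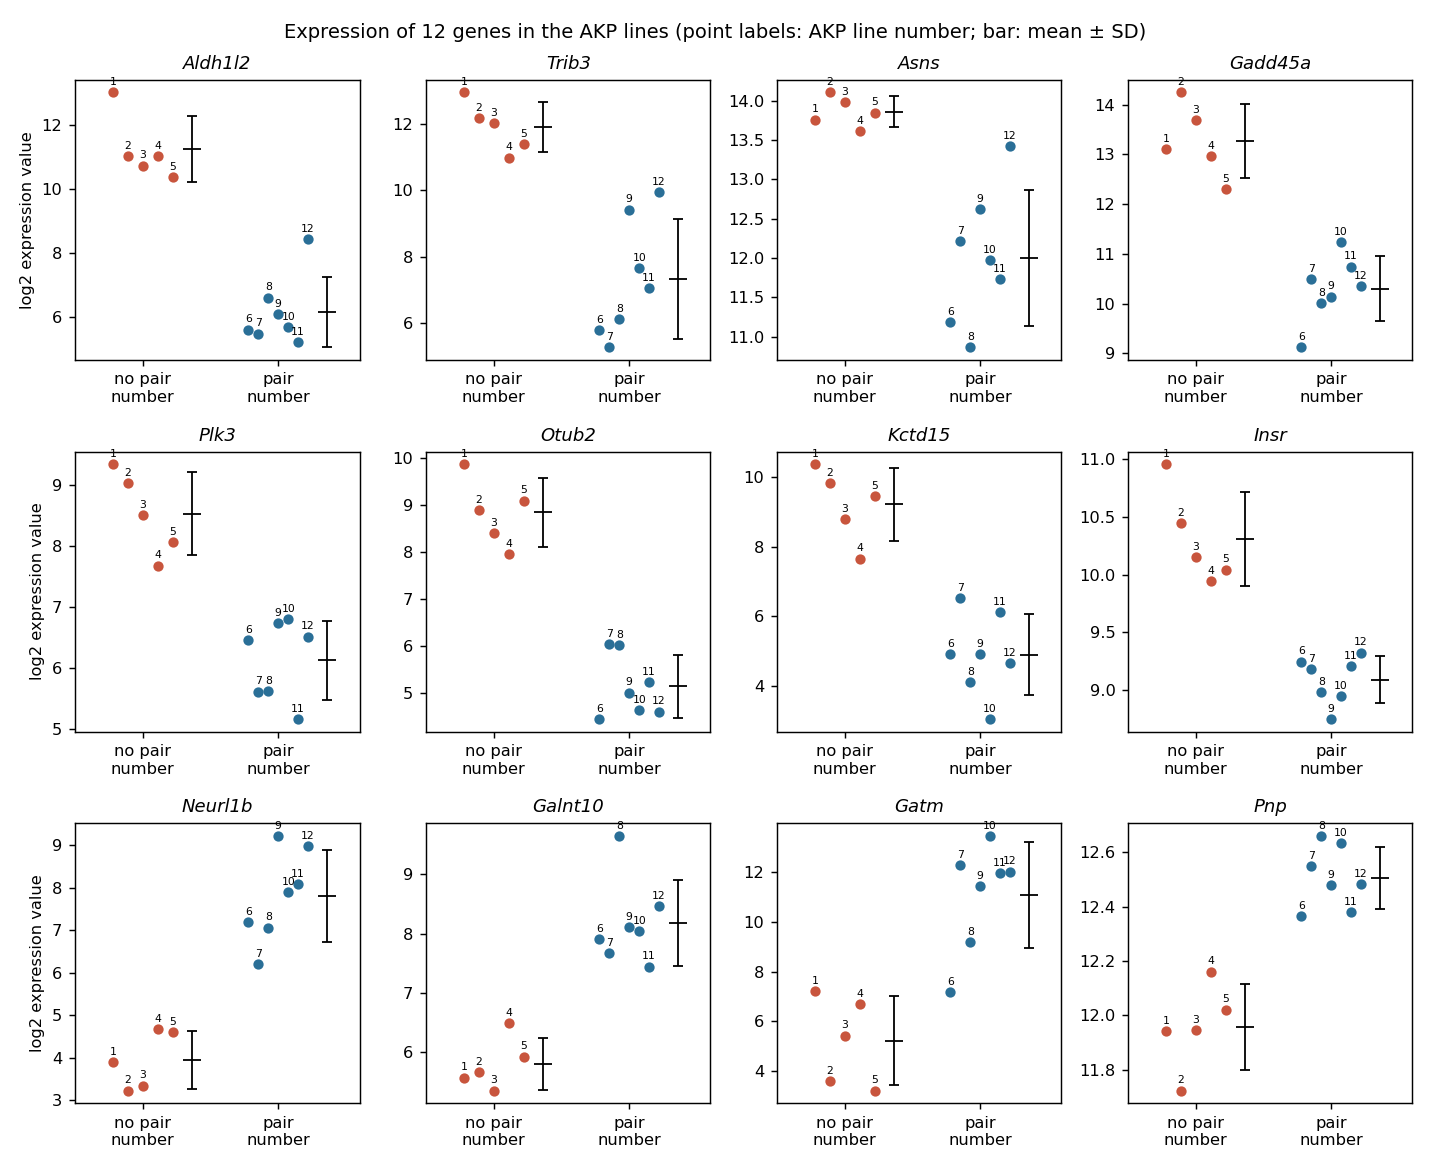
Log2 expression values (vertical axes) of 12 genes in the 5 AKP lines without and the 7 with a pair number; each point is 1 line, numbered by its AKP number, and the bars give mean ± SD. For Aldh1l2 the lowest line without a pair number lies at 10.38 and the highest line with one at 8.44; for Gatm, which did not pass the adjusted threshold, AKP 6 at 7.19 lies just below AKP 1 at 7.22.

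Some of the widest differences did not pass the threshold, and their lines spread widely within a group. Gatm, the enzyme that makes the creatine precursor from arginine and glycine, lay at 7.22, 3.59, 5.43, 6.70 and 3.22 in AKP 1 to AKP 5 and at 7.19, 11.98 and 13.46 with a pair number. The groups touched only through AKP 6 and AKP 1, with a difference of 5.85 ± 1.13 (SE; limma adjusted p = 0.062) and, without those lines, 7.00 (limma adjusted p = 0.0825). Gldc, the glycine decarboxylase of the glycine cleavage system, was on the floor in all 5 lines without a pair number, at 2.69 to 3.06, and lay at 4.91 to 9.30 with one. Its difference of 3.63 ± 0.73 did not pass (limma adjusted p = 0.0667). Blnk, an adaptor protein of B-cell receptor signalling, and Tmem62 lay higher by 3.40 ± 0.61 and 2.98 ± 0.53 without overlap (limma adjusted p = 0.0592 for both). In the fit without AKP 1 and AKP 6, Tram2, Tpmt, which methylates thiopurines, and Mrpl36, of the mitochondrial ribosome, lay higher by 1.62, 1.00 and 1.03 (limma adjusted p = 0.146 for each).

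The stress response list was the only one of 31 gene lists with a called member. All 16 measured members had the lower mean in lines with a pair number. Limma called 1, Sesn2, and 12 had an unadjusted p under 0.05, all lower, where 6.09% of all genes did so in that direction. The median difference was -1.20, against 0.011 over all genes, and -1.09 without AKP 1 and AKP 6, where again 12 members had an unadjusted p under 0.05, against 4.57% of all genes. The list's median level was 12.33, 12.15, 12.61, 11.50 and 11.80 in AKP 1 to AKP 5 and 10.12, 10.64 and 11.24 (lowest, median, highest) with a pair number. The groups therefore did not overlap in the list's level. The AP line with a pair number lay at 12.23 and the AP lines without one at 11.23 and 10.65, the opposite order, with 1 line against 2 and no test.

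Trib3, a pseudokinase induced by ATF4 that feeds back on the response, had the largest difference of the list. It lay at 12.94, 12.17, 12.02, 10.98 and 11.38 in AKP 1 to AKP 5 and at 5.28, 7.04 and 9.94 (lowest, median, highest) with a pair number, a difference of -4.58 ± 0.83 (SE; limma adjusted p = 0.0592). Lines with a pair number spread widely, with AKP 9 and AKP 12 highest, but all lay below AKP 4. Asns, asparagine synthetase, was even among the lines without a pair number, at 13.76, 14.10, 13.99, 13.61 and 13.85, and lay at 10.87, 11.97 and 13.42 with one. Only AKP 12 came near the other group, and the difference was -1.86 ± 0.38 (limma adjusted p = 0.068). Chac1, which degrades glutathione, lay at 11.91, 11.28, 11.83, 10.11 and 12.07 against 5.60, 8.54 and 9.96, with a difference of -3.44 ± 0.78 (limma adjusted p = 0.0889). These 3 genes and Sesn2 were the 4 members whose groups did not overlap, where 0.748% of all genes did not in that direction.

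The transcription factors of the response had differences of the same sign that did not pass. Atf4 itself lay at 13.75, 13.35, 13.57, 12.52 and 13.41 in AKP 1 to AKP 5 and at 11.61, 11.92 and 12.86 with a pair number, and its groups overlapped through AKP 4, AKP 9 and AKP 12. Its difference was -1.22 ± 0.27 (SE; limma adjusted p = 0.0819). Ddit3, which encodes CHOP, was highest in AKP 1 and AKP 2 at 14.00 and 14.06, and differed by -2.66 ± 0.68 (limma adjusted p = 0.105). Atf3 was highest in AKP 3 at 13.54 and differed by -2.57 ± 0.83 (limma adjusted p = 0.186). Ppp1r15a, the phosphatase subunit that reverses eIF2α phosphorylation, differed by -1.60 ± 0.37 (limma adjusted p = 0.0889).

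The list also holds genes tied to the endoplasmic reticulum. Herpud1 differed by -1.21 ± 0.32, Dnajb9 by -0.98 ± 0.26, Xbp1, the factor of the IRE1 branch, by -0.88 ± 0.26, and Hspa5, the chaperone BiP, by -0.68 ± 0.22 (SE), with limma adjusted p-values of 0.111, 0.117, 0.154 and 0.189. Hsp90b1, Pdia4 and Sdf2l1, further proteins of that compartment, had differences of -0.40, -0.23 and -0.10 and an unadjusted p above 0.05, as did Ddit4 at -0.86.

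Further lists, chosen after the values were seen, covered outputs of the response. Of 19 genes of amino acid supply and one-carbon metabolism, 18 had the lower mean with a pair number, and 11 had an unadjusted p under 0.05, all lower, where 6.09% of all genes did so. Limma called 1 of them, Aldh1l2, where 0.104% of all genes were called lower, and the median difference was -1.18. Cth, which makes cysteine, lay at 12.32, 11.41, 11.64, 10.63 and 11.26 in AKP 1 to AKP 5 and at 5.09, 7.28 and 10.77 with a pair number, with a difference of -3.70 ± 0.81 (SE; limma adjusted p = 0.0811). The highest Cth line with a pair number, AKP 12, exceeded AKP 4. Mthfd2, a mitochondrial folate enzyme, differed by -2.54 ± 0.73, the alanine transaminase gene Gpt2 by -2.31 ± 0.47 and Slc3a2, the heavy chain of amino acid transporters, by -0.91 ± 0.22 (limma adjusted p = 0.14, 0.0667 and 0.0992). Slc7a11, the cystine transporter, differed by -0.03 ± 1.02.

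Of 18 measured aminoacyl-tRNA synthetases, which load transfer RNAs with amino acids, 17 had the lower mean, 9 were lower at an unadjusted p under 0.05 (6.09% of all genes) and 0 were called by limma, with a median of -0.62. Sars, Yars and Cars, for serine, tyrosine and cysteine, differed by -1.08, -1.28 and -1.10 (limma adjusted p = 0.0592, 0.0667 and 0.0692). Of 21 chaperones and degradation factors of the endoplasmic reticulum, 5 were lower (6.09% of all genes) and 1, Derl2, was higher (8.04%) at an unadjusted p under 0.05. Limma called 1, Derl1, lower, and the median was -0.10, or -0.28 to -0.08 leaving out 1 line, with -0.28 without AKP 3. The endoplasmic reticulum list and the stress response list share members such as Herpud1, so their counts are not separate. Differences between these lists were not tested.

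**Figure D3:**
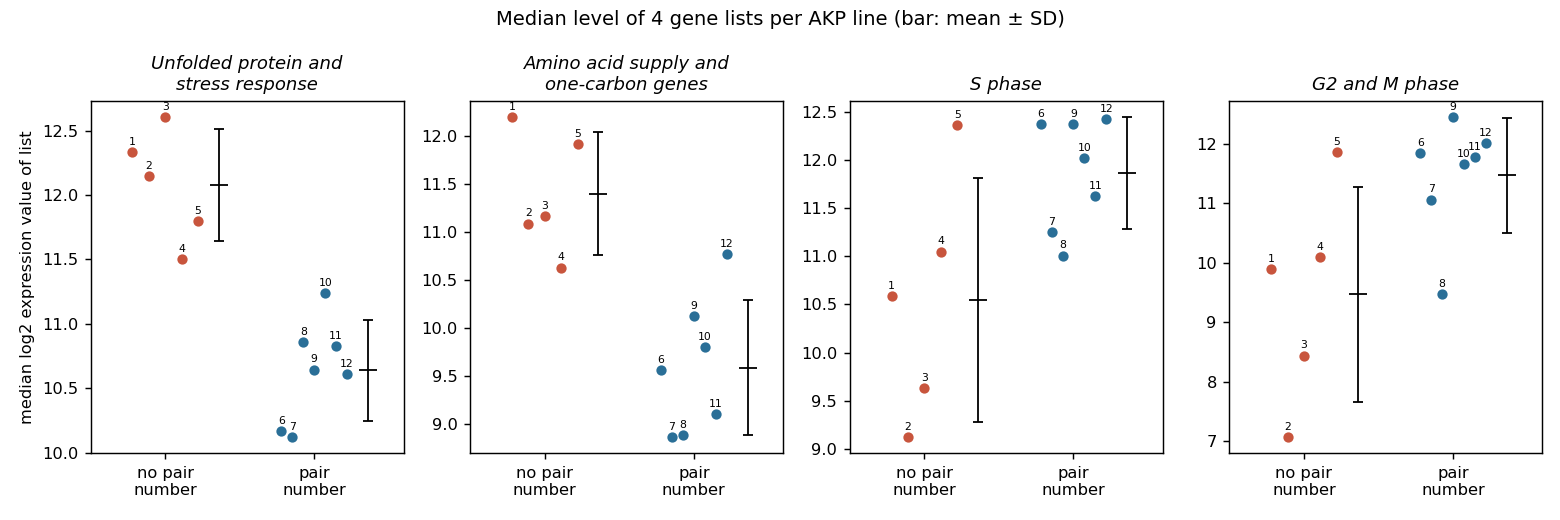
Median log2 expression value (vertical axes) of the members of 4 gene lists in each AKP line without or with a pair number; each point is 1 line, numbered by its AKP number, and the bars give mean ± SD. The stress response list runs from 11.50 to 12.61 without and from 10.12 to 11.24 with a pair number. In the S phase list AKP 5, at 12.36, and AKP 4, at 11.05, lie within the range of the lines with a pair number, 11.01 to 12.42.

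Promoter sequences are shown for 3 members of the stress response list that moved together, because ATF4 binds composite elements with the core TGATGNAA. That motif (reverse complement TTNCATCA, both strands searched) was looked for in RefSeq promoter windows of 300 bases, 250 before and 50 after the start, on GRCm38.p6. It was found for 5 of 16 stress response genes, Asns, Atf3, Chac1, Herpud1 and Trib3 (31.2%), and for 468 of 14452 measured genes with a window (3.24%). It was found for 5 of 11 tRNA synthetases with a window, for 2 of 14 amino acid and one-carbon genes, and for 0 of 14 in each of the S phase and the G2 and M phase lists. Among the called genes it was found for 0 of 15 lower and 0 of 10 higher genes with a window. The stress response and tRNA synthetase lists hold kinds of genes that ATF4 induces, so a higher share may come with the choice of list. That share says nothing about the lines compared. A match is a description of letters, not of binding. In the windows below, 5′ to 3′ on the gene's strand, capitals mark the match.
Asns, chr6:7693160-7693459, minus strand, match beginning at -23 from the start: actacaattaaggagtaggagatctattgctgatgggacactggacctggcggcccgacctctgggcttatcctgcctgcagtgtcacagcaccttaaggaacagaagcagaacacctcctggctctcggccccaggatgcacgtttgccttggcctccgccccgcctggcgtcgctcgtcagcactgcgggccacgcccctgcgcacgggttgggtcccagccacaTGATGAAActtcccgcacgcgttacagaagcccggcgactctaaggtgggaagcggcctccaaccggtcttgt
Trib3, chr2:152344011-152344310, minus strand, match beginning at 15 from the start: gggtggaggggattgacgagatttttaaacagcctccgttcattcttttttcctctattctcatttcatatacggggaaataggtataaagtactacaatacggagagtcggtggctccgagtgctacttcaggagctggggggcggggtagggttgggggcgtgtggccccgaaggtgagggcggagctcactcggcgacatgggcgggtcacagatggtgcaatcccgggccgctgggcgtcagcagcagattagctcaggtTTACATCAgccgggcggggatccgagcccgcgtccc
Chac1, chr2:119350992-119351291, plus strand, match beginning at -193 from the start: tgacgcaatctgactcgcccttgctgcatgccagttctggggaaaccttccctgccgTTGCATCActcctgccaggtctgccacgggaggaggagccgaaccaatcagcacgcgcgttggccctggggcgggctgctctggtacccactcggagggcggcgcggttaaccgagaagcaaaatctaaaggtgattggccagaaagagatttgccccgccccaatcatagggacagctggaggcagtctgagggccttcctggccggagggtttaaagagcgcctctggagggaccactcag

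The proliferation lists differed in the other direction, and none of their members was called. In a growing culture, genes of DNA replication and of mitosis are transcribed in phases of the cell cycle, so their level in a bulk sample follows both the share of cycling cells and the RNA per cell, which cannot be told apart here. Of 17 S phase genes, 16 had the higher mean with a pair number and 10 had an unadjusted p under 0.05, all higher, where 8.04% of all genes did so. The median difference was 1.42. Of 16 genes of G2 and M phase, all had the higher mean and 11 had an unadjusted p under 0.05, with a median difference of 1.92. Without AKP 1 and AKP 6 the medians were 1.28 and 2.12, with 8 and 7 members at an unadjusted p under 0.05, against 5.88% of all genes.

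Ccne2, a cyclin of S phase entry, had the lowest p of the S phase list. It lay at 7.39, 7.04, 6.21, 7.08 and 9.39 in AKP 1 to AKP 5 and at 8.58, 9.27 and 10.00 with a pair number, a difference of 1.79 ± 0.49 (SE; limma adjusted p = 0.125). AKP 5 alone among the lines without a pair number lay within the other group. Cdc6, which loads the replicative helicase, lay at 7.84, 6.55, 4.93, 8.20 and 10.45 against 9.21, 10.06 and 11.57, a difference of 2.73 ± 0.83 (limma adjusted p = 0.161), with the same place for AKP 5. Rrm1, a subunit of ribonucleotide reductase, and Pcna, the clamp of DNA polymerase, differed by 1.42 and 0.69 (limma adjusted p = 0.14 and 0.168). In mitosis, Birc5, which encodes survivin, lay at 10.94, 9.15, 9.36, 11.34 and 13.06 in AKP 1 to AKP 5 and at 11.78, 13.37 and 13.91 with a pair number, a difference of 2.21 ± 0.67 (limma adjusted p = 0.162). Mki67, the proliferation marker Ki-67, and Plk1, a mitotic kinase, differed by 2.43 and 2.20 (limma adjusted p = 0.193 and 0.209). For Birc5, AKP 5 again lay within the range of the other group.

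By line, the S phase list had median levels of 10.59, 9.12, 9.63, 11.05 and 12.36 in AKP 1 to AKP 5 and of 11.01, 12.02 and 12.42 (lowest, median, highest) with a pair number. The G2 and M phase list lay at 9.90, 7.06, 8.44, 10.09 and 11.86 against 9.47, 11.77 and 12.46, where AKP 8 was the lowest line with a pair number. AKP 2 and AKP 3 were the lowest of all lines in both lists. Leaving out AKP 2 gave median differences of 1.00 for S phase and 1.33 for G2 and M phase. A technical measure moved with these lists: the mean of 9 hybridisation control probe sets, spiked in at a fixed amount, lay at 10.66 to 10.88 in AKP 5, AKP 6, AKP 9, AKP 10 and AKP 12 and at 11.19 to 11.47 in the other 7 lines. With it as a covariate, an alternative chosen after seeing the data, the median differences were 0.86 for S phase and 1.11 for G2 and M phase, against -1.15 for the stress response list. Its part in the result was otherwise not tested. The difference between 3′ and 5′ probe sets of actin, a sign of RNA quality, overlapped between groups, at 0.63 to 0.77 with and 0.62 to 0.79 without a pair number.

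**Figure D4:**
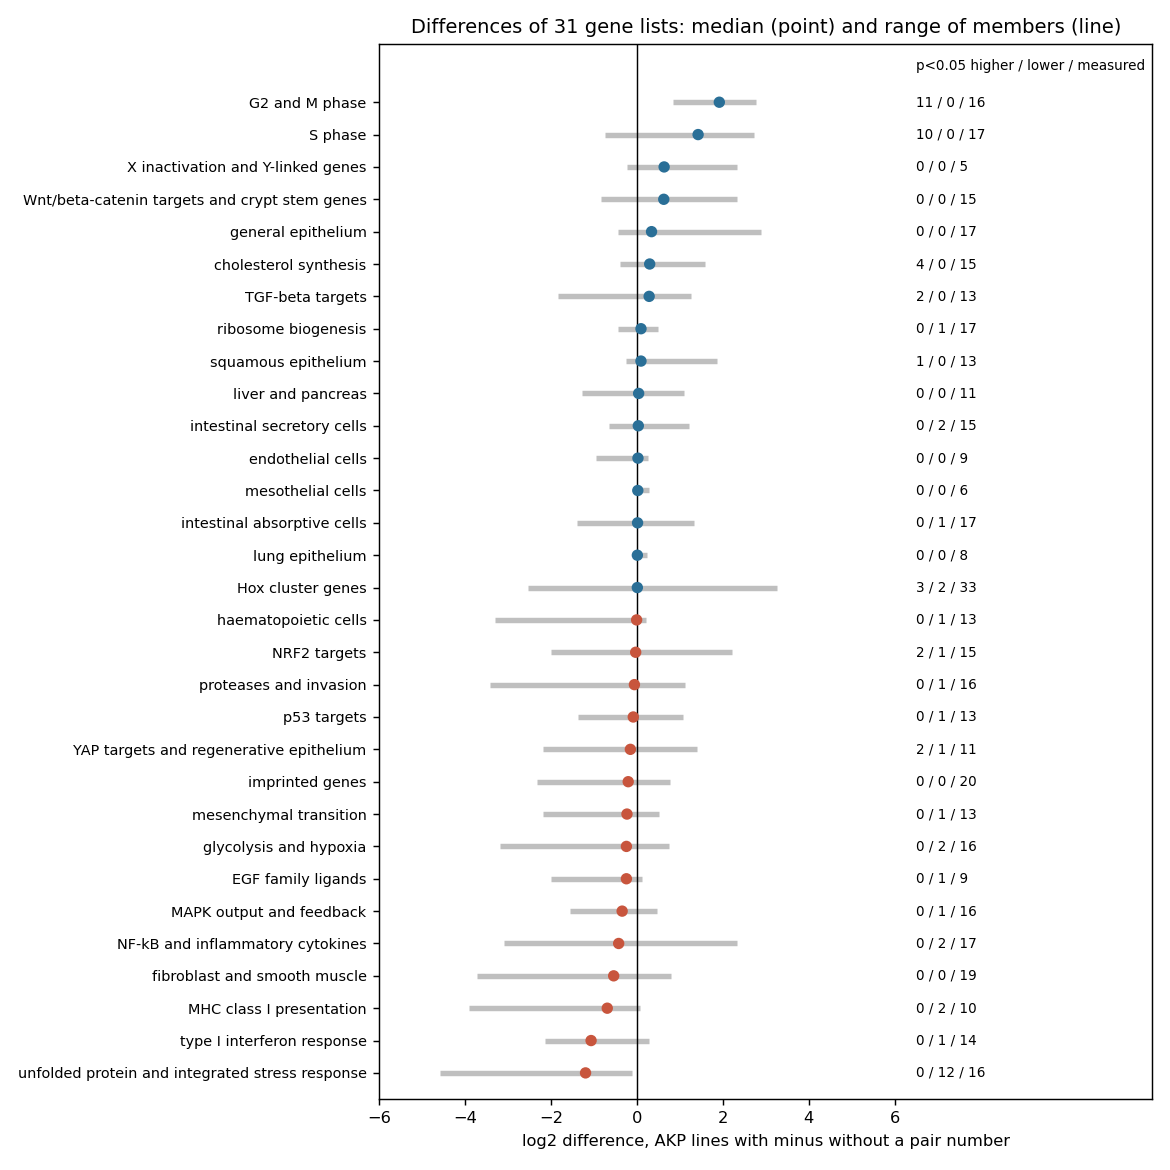
Differences of 31 gene lists between AKP lines with and without a pair number (log2, horizontal axis): the point is the median over measured members, the grey line their range, and the numbers at the right give members with an unadjusted p under 0.05 that were higher or lower, and members measured. The stress response list, at -1.20, and the G2 and M phase list, at 1.92, lie at the ends.

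Most other lists did not stand out: 23 of the 31 had a median within 0.5 of the all-gene median, and none of the other 30 held a called gene. Of 13 p53 targets, 1 was lower at an unadjusted p under 0.05, near the 6.09% of all genes. It was the pro-apoptotic gene Bbc3, which differed by -1.38 ± 0.38 (SE; limma adjusted p = 0.128), while Cdkn1a, the inhibitor of cyclin-dependent kinases, differed by -0.47 ± 0.71. The list of p53 targets did not hold Gadd45a, Plk3 or Sesn2, which were called lower above, so its count leaves them out. The type I interferon list had a median of -1.07, but its level was 9.66 in AKP 1 and at most 4.53 in the other lines, and without AKP 1 and AKP 6 the median was 0.13. The MHC class I list had a median of -0.69 and, without those lines, of -0.16. Its immunoproteasome gene Psmb8 lay at 12.06, 2.73, 2.76, 8.54 and 9.35 in AKP 1 to AKP 5 and at 2.12, 2.81 and 5.39 with a pair number (limma adjusted p = 0.276). The Wnt/beta-catenin list had a median of 0.62 with 0 of 15 members at an unadjusted p under 0.05. Its level was 4.61 in AKP 1 and 8.64 to 11.50 in the other lines, and without AKP 1 and AKP 6 the median was 0.0135.

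Single members of further lists had an unadjusted p under 0.05 without passing the adjusted threshold. Among 15 genes of cholesterol synthesis, 4 were higher at an unadjusted p under 0.05, where 8.04% of all genes were. The leading one, Mvk, mevalonate kinase, differed by 1.57 ± 0.38 (limma adjusted p = 0.0968). Pgd, of the pentose phosphate pathway and a target of NRF2, differed by 0.85 ± 0.20 (limma adjusted p = 0.0944). The NRF2 list went both ways: of 15 members, 5 had the higher and 10 the lower mean, and the median was -0.03. Its member Hmox1 differed by -2.01 ± 0.68 (limma adjusted p = 0.205). Hbegf, an EGF family ligand, differed by -1.29 ± 0.39 and Vegfa, an angiogenic factor, by -2.02 ± 0.60 (limma adjusted p = 0.155 and 0.15). Among 33 measured Hox genes, 3 were higher and 2 lower at an unadjusted p under 0.05, shares near the 8.04% and 6.09% of all genes. The lowest p was that of Hoxa11, at 1.68 ± 0.42 (limma adjusted p = 0.101). Cd68, a lysosomal protein of macrophages that other cells also express, lay at 10.94, 10.78, 10.22, 10.76 and 9.00 in AKP 1 to AKP 5 and at 3.69, 7.48 and 8.86 with a pair number, a difference of -3.31 ± 0.83 (limma adjusted p = 0.102). Its groups did not overlap, while the other haematopoietic markers lay near the floor, the list's median level being 2.68 to 3.76 in all 12 lines.

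The AP lines allow a look at the same label outside the AKP genotype, with 1 line against 2 and no replicate check. AP 1, the only AP line with a pair number, differed from the mean of AP 2 and AP 3 in the same direction as the AKP lines for 7 of the 31 called genes, 2 of 12 higher and 5 of 19 lower. Those AP lines also have different names, since 1 of the 3 begins with TMC.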

How the data were processed

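Total RNA of each line was hybridised to an Affymetrix mouse expression array, per the labels and the series' design text. The deposited values are log2 expression, 1 per probe set and array; the sources used here do not give the background correction, summarisation or scaling. Without detection calls in the table, low values and background look alike. Precision is limited by the number of lines; the labels call them biological replicates, do not say whether some share an animal, and the p-values rest only on how these lines vary.

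From 45101 probe sets, 64 controls were left out. A single gene was listed for 34945 probe sets, several for 932 and none for 9160, and 34741 matched RefSeq (GRCm38.p6) by Entrez identifier. Each of 18193 genes was represented by its probe set with the highest mean over 15 arrays, as deposited and without a filter. Lines with and without a pair number were compared with limma 3.58.1 in R 4.3.3 (lmFit, eBayes, two-sided, Benjamini-Hochberg over all genes, threshold 0.05) without covariates, over 12 AKP lines and over 10. Other values came from Python 3.11.15 with scipy 1.17.1. The fit was tested on simulated data beforehand.

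The comparison, its members and the 31 gene lists were chosen with earlier results of these data known, and 3 further lists after the values were seen. Lists are described by counts and medians and not tested. For named genes, predicted-gene, Riken and clone symbols were left out, and the brighter group had to reach a mean of 4.17 (the median over probe sets). The rule takes the 12 largest differences among called genes in each direction, filled where fewer were called with the lowest p among genes differing by at least 1, 6 in each direction for the 10-line fit, the 6 non-overlapping genes in each direction with the widest gap, and up to 3 members per list with the lowest p. Other called genes and further list members were chosen after their values were seen. Alternatives covered scaling, probe sets, filters at the 40th and 60th percentile, variance model, array weights, covariates, samples and the test. The authors' own table of AKP against AP was not used here. Promoter windows come from RefSeq.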

Additional observations from a re-analysis of the deposited data

Results flagged for a closer look

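In 150 checks of a single line far from the rest of its group, over the genes named in the text in each of the 2 groups, 7 lines stood out. The limit is set so that chance gives about 1 in 20, and the checks share lines, so this count is not a test. Aldh1l2 stood out in both groups: AKP 12 lay at 8.44 against at most 6.61 in the other lines with a pair number, and AKP 1 at 13.01 against at most 11.03 in the other lines without one. AKP 1 lay at 9.75 for Ankrd13a, with the nearest line at 10.35. Plekhn1 lay at 7.63 in AKP 11 against at most 7.12, and Yaf2 at 12.46 in AKP 6 against at most 12.24. Pcna lay at 14.87 in AKP 5 against at most 13.98 in the other lines without a pair number. Pgd lay at 12.96 in AKP 7, with the nearest line at 13.58. The causes were not tested.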

How the results depend on the processing

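The adjusted calls depended on the setting. The groups do not overlap in any of the 31 called genes, so their direction cannot turn when lines are left out and is no sign of stability there. The count of 31 became 13 when dim genes under the 40th percentile were dropped, 122 at the 60th, 9 with trend and robust eBayes, 153 with array weights, 123 with labelled sex as a covariate, 3 with the TMC name as a covariate, 2 with a term for the adenoma line, 0 with a Welch statistic (1980 genes at an unadjusted p under 0.05), 160 in lines labelled female, 15 in lines named TMC, 0 without AKP 1 and AKP 6, and 0 with the hybridisation control level as a covariate (2254 at an unadjusted p under 0.05), the last chosen after seeing the data. Leaving out 1 line gave 0 (without AKP 3, AKP 9 or AKP 10) to 503 genes (without AKP 5), and 1 to 6 genes when the line was AKP 1 (5), AKP 2 (1), AKP 6 (2), AKP 7 (6), AKP 8 (5), AKP 11 (3) or AKP 12 (3). Tested per probe set, 42 of 34945 were called. With all 15 lines in the fit the count was again 31, but only 16 of the genes were the same. In 10 lines the count of 0 became 3 with the mean of all probe sets, 12 over single probe sets, 4 at the 40th percentile, 8 with array weights and 2 with all 15 lines in the fit, and 0 to 10 leaving out 1 line. The separation of the lines was 0.00518 without AKP 1 and AKP 6, and 0.00636 to 0.0126 leaving out 1 line, with p above 0.05 only without AKP 2 (0.00748). Over 28 settings the median difference ran from -1.38 to -1.05 for the stress response list, -1.50 to -1.02 for the amino acid list, -0.75 to -0.45 for the tRNA synthetases, 0.86 to 2.00 for S phase and 1.11 to 3.06 for G2 and M phase, the 3.06 in lines labelled female. That of the endoplasmic reticulum list ran from -0.41 in lines labelled female to -0.08 with arrays centred, and moved by over 1.5 times without AKP 3 (-0.28), AKP 8 (-0.23), AKP 5 (-0.22), AKP 4 (-0.18), AKP 7 (-0.17), AKP 2 or AKP 9 (-0.16 each). No paired analysis was possible because the groups compared share no replicate numbers, and each pair number occurs once. The cause of the differences between settings was not tested.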
